A study of Mus musculus with 27 samples.

Results

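The hypoxia response genes of the mouse lung were followed through 10 members: Hif1a, Vegfa, Adm, Egln3, Bnip3, Ankrd37, Slc2a1, Car9, Ndrg1 and Pgk1. They were chosen by name as genes of the hypoxia pathway, with earlier results of these data known, and all 10 were among the 18194 genes measured. RNA came from the right upper lung lobe of female mice of 3 inbred strains, aged 10 to 12 weeks and killed 24 hours after the whole thorax received X-rays at 12.5 Gy, at 15 Gy or as a sham exposure (0 Gy). The strains were C57L/J, which develops lethal lung injury at lower doses, CBA/J, and C57BL/6J, which tolerates higher doses. Each of the 9 groups held 3 mice, with 1 array per mouse and no pooling, so that 18 arrays were from irradiated mice and 9 from sham-irradiated mice. The labels name no transgene and no drug. Retnla, which encodes the secreted protein RELM-α and which the paper connects to tissue hypoxia, was set beside the 10 members. Levels are log2 of the deposited array intensity, and a gene was represented by its brightest probe set (the group of short probes that measures 1 transcript).

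Cells sense low oxygen through hypoxia-inducible factors, whose α subunits are made continuously and destroyed when oxygen is plentiful. Prolyl hydroxylases mark the α subunit in the presence of oxygen, and the von Hippel-Lindau protein then directs it to degradation. When oxygen falls, the α subunit is spared, pairs with its β partner and binds a short DNA motif, the hypoxia response element, near genes for glucose uptake, glycolysis, acid handling, vessel growth and mitochondrial turnover. Hif1a encodes the α subunit of the main factor, and the other 9 members are widely used transcriptional readouts of its activity. Hif1a protein is controlled mostly by its stability, which arrays do not measure.

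The arrays were comparable in scale, with median intensities between 127.6 and 167 and pairwise correlations between 0.89 and 0.96. Markers of lung epithelium were at high and similar levels on irradiated arrays (mean log2 level of 6 genes 13.37 to 14.05) and sham arrays (13.60 to 13.97). On 9 arrays the mean of 10 skeletal muscle markers stood 2.10 to 8.17 log2 units above the median array, against -0.85 to 0.29 on the other 18. These 9 arrays comprised 1 of C57L/J at 15 Gy, 2 of CBA/J at 0 Gy, 2 of CBA/J at 12.5 Gy, 2 of C57BL/6J at 12.5 Gy and 2 of C57BL/6J at 15 Gy. Results were therefore also computed without them. This leaves 1 array each of CBA/J at 0 and 12.5 Gy and of C57BL/6J at 12.5 and 15 Gy. Fat and lymph node markers also varied among the other 18 arrays. On CBA/J 0 Gy replicate 3 the fat markers averaged 10.96 and the lymph node markers 9.61. On replicates 1 and 2 of that group they were 5.52 and 7.69 for fat, and 5.42 and 5.27 for lymph node. In whole lobes, fewer cells of a type and less RNA per cell cannot be told apart.

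**Figure D1:**
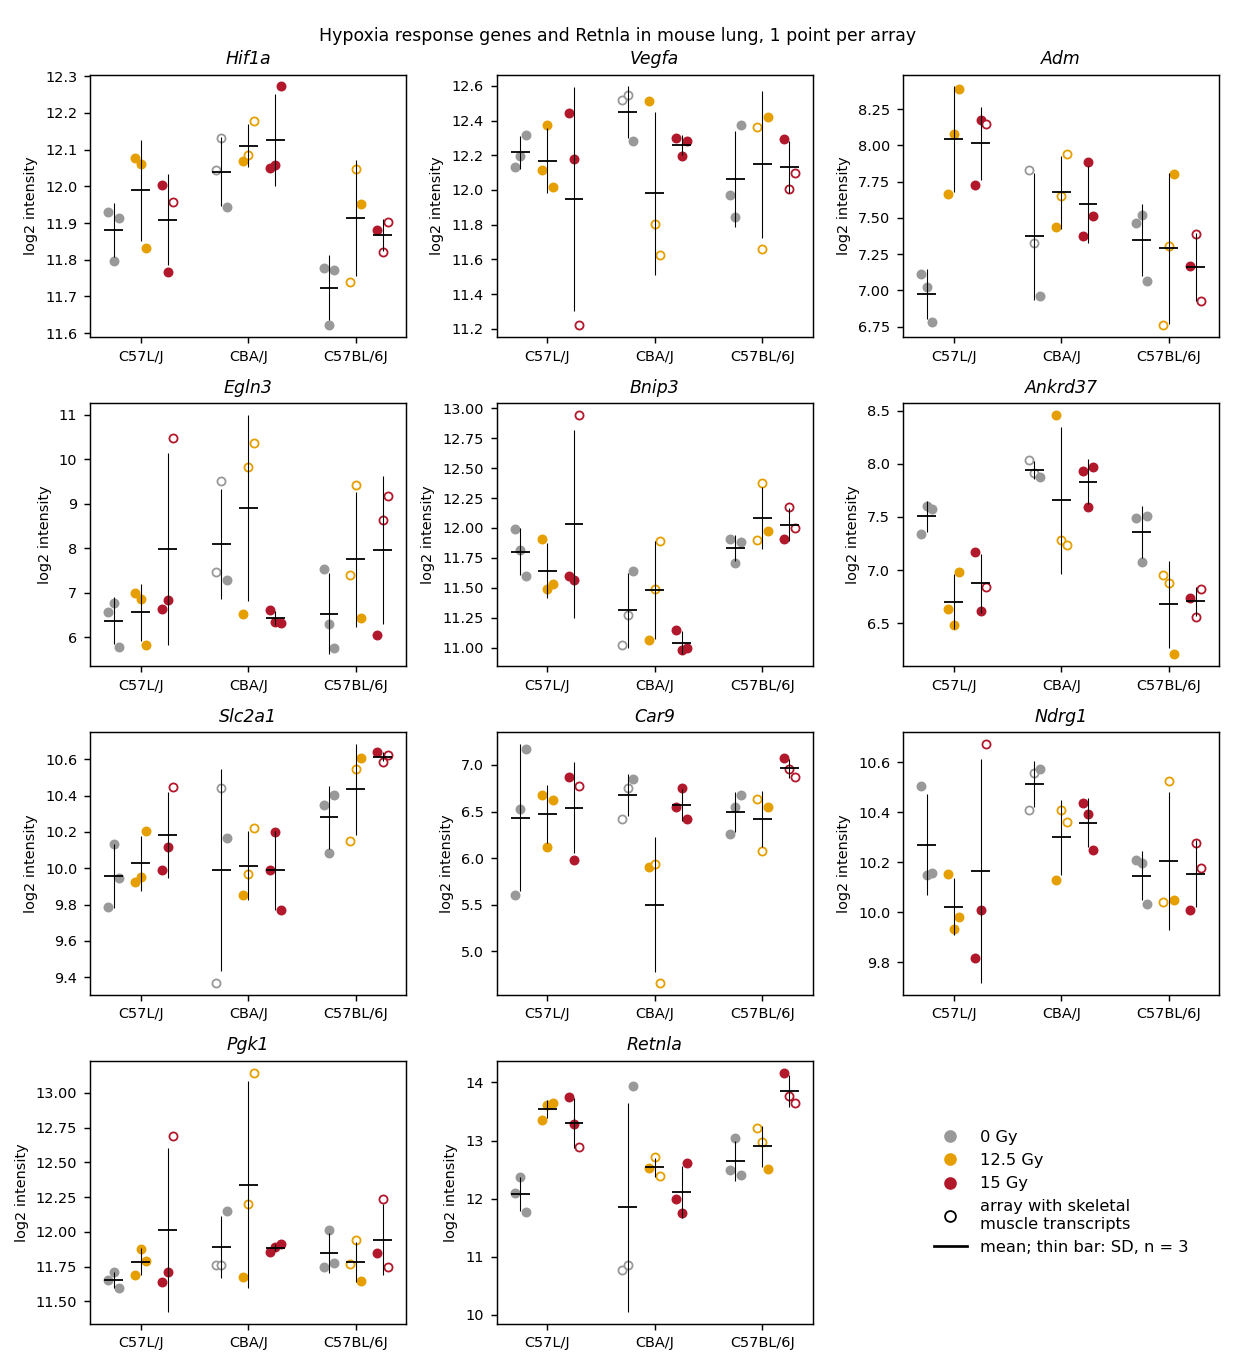
Log2 intensity (vertical axis) of the 10 hypoxia response genes and Retnla by strain (horizontal axis) and dose (colour), 1 point per mouse, with the group mean and SD (n = 3). Open points are the 9 arrays with skeletal muscle transcripts, on which Egln3 lay between 7.41 and 10.48. On the brightest probe set shown, Adm stands apart by dose only in C57L/J, where its 6 irradiated arrays lie above its 3 sham arrays. Its second probe set does not separate them.

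Over the 3 strains, 2 of the 10 members changed after irradiation, in opposite directions: Ankrd37 fell and Adm rose. In that comparison 14.3% of all genes passed an adjusted p of 0.05 (limma over the 27 arrays, Benjamini-Hochberg adjustment over 18194 genes, here and in all comparisons that follow). The median change of the 10 members was 0.09 on the log2 scale, against -0.01 over all genes, and 6 of the 10 had a change above 0. The share of members that changed was thus near that of the genome, and no common direction was seen.

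Ankrd37, an ankyrin repeat gene that hypoxia-inducible factor activates directly, is represented by 1 probe set. In C57L/J it measured 7.34, 7.60 and 7.58 at 0 Gy, 6.64, 6.49 and 6.99 at 12.5 Gy, and 7.17, 6.61 and 6.84 at 15 Gy. In C57BL/6J the values were 7.49, 7.08 and 7.51 at 0 Gy, 6.95, 6.88 and 6.21 at 12.5 Gy, and 6.73, 6.56 and 6.83 at 15 Gy. Every irradiated mouse of these strains was below every sham mouse of its own strain. The share of all genes that separate in this way was not computed, here or for Adm, Retnla and Ddit4 below. In CBA/J the values were 8.04, 7.91 and 7.87 at 0 Gy, 8.46, 7.28 and 7.23 at 12.5 Gy, and 7.93, 7.59 and 7.97 at 15 Gy, and irradiated and sham arrays overlapped. Over the strains Ankrd37 fell by 0.53 ± 0.13 (log2 scale, SE; 95% confidence interval -0.80 to -0.26; adjusted p = 0.00852), to 0.69 of its sham level. Without the 9 arrays with skeletal muscle transcripts the change was -0.44 and the call was lost (adjusted p = 0.0627). The adjusted p stayed below the threshold when any 1 array was left out (0.000298 to 0.021).

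Adm encodes adrenomedullin, a peptide that dilates vessels and supports the endothelial barrier. In C57L/J it measured 7.11, 7.02 and 6.78 at 0 Gy, 7.67, 8.08 and 8.39 at 12.5 Gy, and 7.73, 8.18 and 8.15 at 15 Gy. On this brightest probe set, all 6 irradiated mice of this strain were above its 3 sham mice. In CBA/J it measured 7.83, 7.32 and 6.96 at 0 Gy, 7.44, 7.65 and 7.94 at 12.5 Gy, and 7.38, 7.89 and 7.51 at 15 Gy. In C57BL/6J it measured 7.46, 7.52 and 7.07 at 0 Gy, 6.76, 7.31 and 7.80 at 12.5 Gy, and 7.17, 7.39 and 6.93 at 15 Gy. Irradiated and sham arrays overlapped in CBA/J and C57BL/6J. On the second Adm probe set they also overlapped in C57L/J, where 12.5 Gy replicate 1 (7.22) lay below 0 Gy replicate 2 (7.37). On that set every CBA/J array at 12.5 Gy lay above the CBA/J sham arrays (highest 7.09), while the 15 Gy arrays overlapped them.

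Over the strains Adm rose by 0.40 ± 0.13 (log2 scale, SE; 95% confidence interval 0.13 to 0.67; adjusted p = 0.0437), a 1.32-fold increase. The second Adm probe set rose by 0.47 ± 0.13 (adjusted p = 0.0272 over all probe sets). The call on the brightest probe set lay close to the threshold. It was kept when 7 of the 27 arrays were left out in turn (C57L/J 12.5 Gy replicate 1, C57L/J 15 Gy replicate 1, replicate 1 of each CBA/J group, C57BL/6J 12.5 Gy replicate 1 and C57BL/6J 15 Gy replicate 3) and lost for each of the others (adjusted p up to 0.109). Without the muscle arrays the rise was 0.57 (adjusted p = 0.0367), and with the muscle markers as a covariate the call was lost (adjusted p = 0.0814).

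The rise of Adm was clearest in C57L/J. Both doses together gave a change of 1.06 ± 0.22 (log2 scale, SE; 95% confidence interval 0.59 to 1.52), a 2.08-fold increase (adjusted p = 0.0138), and Adm was the 1 member called in that strain, where 2.0% of all genes were called. The change was 0.26 ± 0.22 in CBA/J (adjusted p = 0.632) and -0.13 ± 0.22 in C57BL/6J (adjusted p = 0.84). In these strains 0 members were called, while 4.09% of genes were called in CBA/J and 3.53% in C57BL/6J. At an unadjusted p under 0.05, limma gave 1 member in CBA/J (Car9, -0.64), where 16.2% of all genes met that limit, and 1 in C57BL/6J (Ankrd37, -0.67), where 16.4% did. The second Adm probe set changed by 0.84 ± 0.23 in C57L/J, which missed the threshold over all probe sets (adjusted p = 0.0921). Without C57L/J 0 Gy replicate 2 the adjusted p for Adm in C57L/J was 0.0608, and without replicate 3 of that group it was 0.106. These contrasts by strain were chosen after the data were seen.

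**Figure D2:**
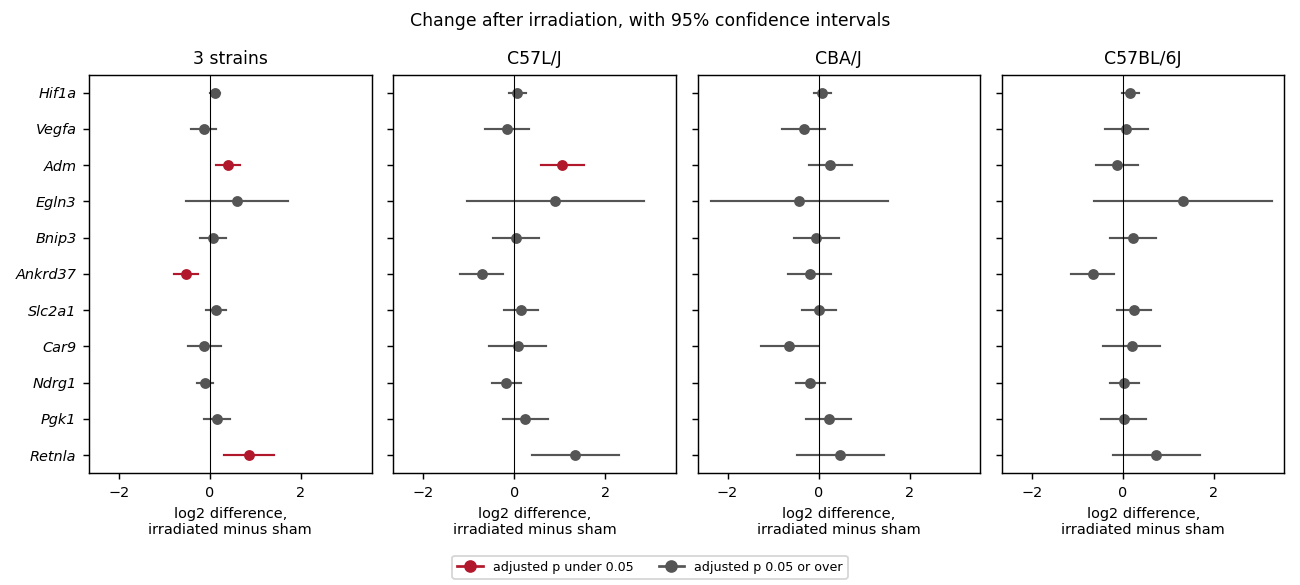
Log2 difference between irradiated (12.5 and 15 Gy together) and sham arrays (horizontal axis) for each gene (vertical axis), over the 3 strains and within each strain, with 95% confidence intervals from limma. Ankrd37 (-0.53), Adm (0.40) and Retnla (0.85) passed the threshold over the 3 strains, and Adm (1.06) within C57L/J; the widest intervals belong to Egln3.

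The test of whether strains differed in their response called 0 members and 0.0% of all genes (limma, strain by irradiation interaction). At an unadjusted p under 0.05 it gave 1 member, Adm (adjusted p = 0.605), and 5.38% of all genes. The Adm response in C57L/J exceeded that in C57BL/6J by 1.18 ± 0.32 (log2 scale, SE; adjusted p = 0.595). A difference between strains in the Adm response was therefore not established after adjustment over all genes. For Ankrd37 the response in CBA/J differed from that in C57BL/6J by 0.47 ± 0.32 (95% confidence interval -0.19 to 1.13), and the interval of C57L/J minus C57BL/6J ran from -0.71 to 0.61.

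The promoters of the 2 members that changed, and of Retnla, are shown for the core of the hypoxia response element, searched as ACGTG and GCGTG on both strands, with overlapping matches counted separately. The 250 bases before the start of transcription were taken from RefSeq (build GRCm38.p6), 5′ to 3′ along the gene, and capitals mark the matches.
Ankrd37 (chr8:45999851-46000100, minus strand): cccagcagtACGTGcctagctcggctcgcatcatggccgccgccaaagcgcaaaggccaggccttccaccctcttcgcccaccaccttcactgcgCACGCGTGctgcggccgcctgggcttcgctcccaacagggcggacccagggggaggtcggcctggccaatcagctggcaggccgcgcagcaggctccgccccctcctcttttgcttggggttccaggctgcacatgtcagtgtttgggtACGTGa
Adm (chr7:110627407-110627656, plus strand): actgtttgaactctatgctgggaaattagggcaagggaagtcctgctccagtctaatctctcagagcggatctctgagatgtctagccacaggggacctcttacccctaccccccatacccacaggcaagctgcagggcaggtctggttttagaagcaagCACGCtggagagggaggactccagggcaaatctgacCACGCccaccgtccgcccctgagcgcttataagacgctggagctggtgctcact
Retnla (chr16:48842359-48842608, plus strand): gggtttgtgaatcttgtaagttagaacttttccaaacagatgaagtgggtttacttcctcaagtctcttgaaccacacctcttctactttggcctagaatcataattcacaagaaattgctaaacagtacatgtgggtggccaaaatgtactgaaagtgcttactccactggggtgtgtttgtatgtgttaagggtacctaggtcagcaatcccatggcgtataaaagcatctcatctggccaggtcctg
Ankrd37 held 4 matches, of which a pair overlap in 1 run, and Adm held 2. The Retnla window held 0. A match was found in 38.6% of the 32851 RefSeq promoters of this length. All 9 members with a RefSeq promoter had at least 1 match (Ndrg1 was not among them), from 1 each for Egln3 and Car9 to 5 for Bnip3; Vegfa had 0 at the upstream of its 2 starts and 2 at the other. A match is a stretch of letters and does not show that the factor binds there. Ankrd37 and Adm, which moved in opposite directions, both carry matches.

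Among the remaining members, the gene of the factor itself moved little on its brightest probe set. Hif1a ranged from 11.74 to 12.27 on irradiated arrays and from 11.62 to 12.13 on sham arrays, a change of 0.10 ± 0.05 (95% confidence interval -0.003 to 0.21; adjusted p = 0.198). Its irradiated and sham arrays overlapped in every strain.

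Slc2a1, Pgk1 and Car9 did not pass the threshold. Slc2a1, the basal glucose transporter GLUT1, ranged from 9.77 to 10.64 on irradiated arrays and from 9.37 to 10.44 on sham arrays. Its change was 0.14 ± 0.10 (adjusted p = 0.442), and its other probe sets gave 0.19 and 0.20. Pgk1, a phosphoglycerate kinase of glycolysis, ranged from 11.64 to 13.14 on irradiated arrays and from 11.60 to 12.15 on sham arrays, with a change of 0.16 ± 0.14 (adjusted p = 0.494). Car9, a carbonic anhydrase at the cell surface, lay at low intensity throughout (4.66 to 7.17 over the 27 arrays) and changed by -0.12 ± 0.17 (adjusted p = 0.707).

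Vegfa, Bnip3 and Ndrg1 did not pass it either. Vegfa, the main growth factor for endothelium, ranged from 11.22 to 12.51 on irradiated arrays and from 11.84 to 12.55 on sham arrays, a change of -0.14 ± 0.13 (95% confidence interval -0.41 to 0.14; adjusted p = 0.555). Bnip3, which marks mitochondria for removal, changed by 0.07 ± 0.14 (adjusted p = 0.802). Ndrg1, a stress-induced gene, changed by -0.11 ± 0.09 (adjusted p = 0.463). Irradiated and sham arrays overlapped for these 3 genes in every strain.

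Some markers of other cell types moved with irradiation beside these genes. Of 6 endothelial markers 3 fell (mean log2 level 10.93 to 12.19 on irradiated arrays, 11.52 to 12.30 on sham arrays). The lowest levels were all on arrays with skeletal muscle transcripts: C57L/J 15 Gy replicate 3 (10.93), C57BL/6J 15 Gy replicate 2 (11.05) and CBA/J 12.5 Gy replicate 3 (11.17). The fall was not tested without those arrays. Of the 3 erythroid markers measured 2 fell, with levels of 5.63 to 8.02 on irradiated arrays and 7.39 to 8.76 on sham arrays. Of the 4 neutrophil markers measured 2 rose, while the other 2 had changes below 0 that were not called. Their mean level was 7.54 to 10.16 on irradiated arrays and 7.76 to 9.29 on sham arrays. The part of these cell types in the changes of Adm and Ankrd37 was not tested.

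Egln3, an oxygen-dependent prolyl hydroxylase that hypoxia itself induces, had the largest mean change of the 10 members over the strains and the widest interval. It ranged from 5.82 to 10.48 on irradiated arrays and from 5.76 to 9.52 on sham arrays, a change of 0.60 ± 0.54 (95% confidence interval -0.52 to 1.72; adjusted p = 0.518). On the 9 arrays with skeletal muscle transcripts Egln3 lay between 7.41 and 10.48 (median 9.42), against 5.76 to 7.53 (median 6.54) on the other 18. Without those 9 arrays its change after irradiation was -0.27 (adjusted p = 0.637). The genes most like Egln3 over the 27 arrays were Apobec2 (Pearson r = 0.96, Spearman rho = 0.86) and Tnni2, a troponin of fast skeletal muscle (r = 0.95, rho = 0.77).

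Pgk1, Bnip3 and Vegfa also stood apart where the muscle markers were highest. On C57L/J 15 Gy replicate 3, Pgk1 was 12.69 against 11.64 and 11.71 on the other arrays of its group, Bnip3 was 12.94 against 11.60 and 11.56, and Vegfa was 11.22 against 12.44 and 12.18. On CBA/J 12.5 Gy replicate 3, which had the highest muscle markers, Pgk1 was 13.14 against 11.67 and 12.20, Bnip3 was 11.89 against 11.07 and 11.49, and Vegfa was 11.62 against 12.51 and 11.81. Without the 9 muscle arrays the irradiation change was -0.13 for Pgk1, -0.22 for Bnip3 and 0.14 for Vegfa, so that the sign of all 3 turned. CBA/J sham is then replicate 3 alone. Its Pgk1 (12.15 against 11.76 and 11.76) and Bnip3 (11.64 against 11.02 and 11.27) were the highest of its group. Its Vegfa (12.28 against 12.52 and 12.55) was the lowest. How much of the turn came from that array was not tested. The level of Acta1, skeletal muscle actin, was 12.03 to 14.99 on the 9 arrays and 5.38 to 9.12 on the others. How far muscle RNA contributed to the values of these members was not tested.

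**Figure D3:**
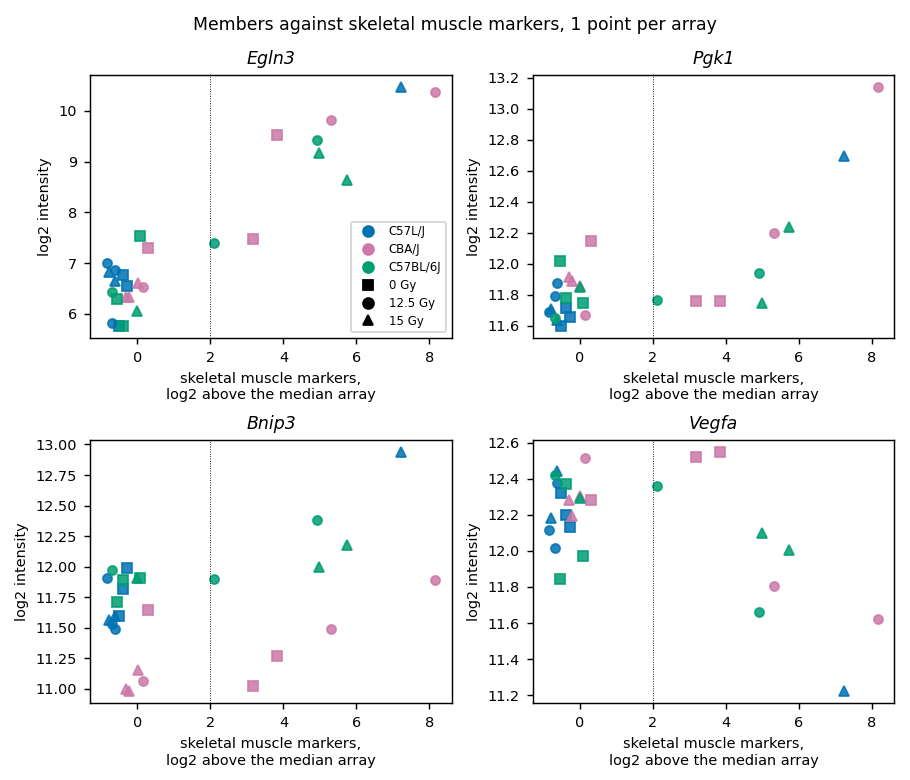
Log2 intensity of Egln3, Pgk1, Bnip3 and Vegfa (vertical axes) against the mean of 10 skeletal muscle markers (horizontal axes, log2 above the median array), 1 point per array, coloured by strain and shaped by dose; the dotted line at 2 separates the 9 muscle arrays. Egln3 is higher in almost all arrays right of the line, while Vegfa reaches its lowest value, 11.22, on 1 of the 2 arrays with the strongest markers.

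The doses were next compared strain by strain. Both doses of a strain share the same 3 sham arrays. No member passed an adjusted p of 0.05 (limma, arrays of the 2 groups only) at 12.5 or 15 Gy against 0 Gy. The share of all genes called was 0.517% at 12.5 Gy and 0.0% at 15 Gy for C57L/J. For CBA/J it was 0.033% and 1.01%, and for C57BL/6J 0.484% and 0.066%, in the same order of doses. At an unadjusted p under 0.05, limma gave 2 members at 12.5 Gy and 2 at 15 Gy for C57L/J, 1 and 1 for CBA/J, and 1 and 2 for C57BL/6J. The shares of all genes at that limit were 13% and 7.44% for C57L/J, 10.6% and 15.6% for CBA/J, and 10.8% and 12.5% for C57BL/6J. The random variance test of the study's methods also called 0 members after adjustment in all 6.

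Some members met the looser limit of the study's methods, an unadjusted p under 0.01. Adm was 1.07 ± 0.21 higher at 12.5 Gy than at 0 Gy in C57L/J (adjusted p = 0.142) and 1.04 ± 0.19 higher at 15 Gy (adjusted p = 0.293). Ankrd37 was 0.80 ± 0.17 lower at 12.5 Gy in C57L/J (log2 change -0.80, adjusted p = 0.152) and 0.65 ± 0.17 lower at 15 Gy in C57BL/6J (log2 change -0.65, adjusted p = 0.26). These are 2 members at 12.5 Gy and 1 at 15 Gy in C57L/J, where 4.53% and 1.86% of all genes met that limit, and 0 and 1 in C57BL/6J, where 3.65% and 3.81% did. In CBA/J 0 members met it at either dose, while 3.28% of genes did at 12.5 Gy and 5.61% at 15 Gy. The random variance test gave the same number of members in each of the 6 comparisons. The rise of Adm at 12.5 Gy in C57L/J passed the adjusted threshold when the spread was estimated over the 27 arrays (adjusted p = 0.047). For a single gene, the smallest p that an exact permutation test of 3 against 3 mice can give is 0.1, so none was used here.

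Between 15 and 12.5 Gy, 0 members and 0.0% of all genes passed the threshold (limma), and 1 member had an unadjusted p under 0.05, as did 4.45% of all genes. This was Car9, 0.56 ± 0.20 higher at 15 Gy (adjusted p = 0.999). In CBA/J its values were 6.55, 6.75 and 6.41 at 15 Gy and 5.91, 5.93 and 4.66 at 12.5 Gy. Adm and Ankrd37 differed little between the doses (-0.08 ± 0.15 and 0.12 ± 0.15), with 95% confidence intervals of -0.39 to 0.23 and -0.19 to 0.44.

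Strain differences were called for 4 of the members. Between CBA/J and C57BL/6J, over the 3 doses, 4 of 10 members were called, against 13.3% of all genes, with Ankrd37 and Hif1a higher and Bnip3 and Slc2a1 lower in CBA/J. Between C57L/J and CBA/J 2 were called, against 11.2% of genes, Ankrd37 lower and Bnip3 higher in C57L/J. Between C57L/J and C57BL/6J 0 members were called, against 5.34% of genes, and 2 had an unadjusted p under 0.05 (limma), as did 19.2% of all genes. These were Slc2a1 (-0.39, adjusted p = 0.068) and Adm (0.41, adjusted p = 0.121). The comparisons share arrays, as each strain enters a pair of them. Retnla was 0.96 ± 0.31 lower in CBA/J than in C57BL/6J (log2 change -0.96, limma adjusted p = 0.0413). That call was kept when 12 of the 27 arrays were left out in turn and lost for the others (adjusted p up to 0.0957). Without the muscle arrays the difference was -0.24. CBA/J sham is then replicate 3 alone, whose Retnla level was 13.93. C57L/J did not differ past the threshold in Retnla from CBA/J (adjusted p = 0.103) or C57BL/6J (adjusted p = 0.832).

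Ankrd37 ranged from 7.23 to 8.46 in CBA/J (n = 9), from 6.49 to 7.60 in C57L/J and from 6.21 to 7.51 in C57BL/6J. It was 0.89 ± 0.15 higher in CBA/J than in C57BL/6J (adjusted p = 0.000253) and 0.78 ± 0.15 lower in C57L/J than in CBA/J (log2 change -0.78, adjusted p = 0.00104). Both differences kept their call in every alternative run and whichever array was left out. C57L/J and C57BL/6J did not differ past the threshold (0.11, 95% confidence interval -0.20 to 0.42).

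Bnip3, measured by 1 probe set, ranged from 10.98 to 11.89 in CBA/J, from 11.49 to 12.94 in C57L/J and from 11.71 to 12.38 in C57BL/6J. It was 0.70 ± 0.16 lower in CBA/J than in C57BL/6J (log2 change -0.70, adjusted p = 0.00462). In C57L/J it was 0.55 ± 0.16 higher than in CBA/J (adjusted p = 0.0297). This call was lost when 1 of 8 arrays was left out (C57L/J 0 Gy replicates 1 and 2, C57L/J 12.5 Gy replicate 1, CBA/J 0 Gy replicates 1 and 2, CBA/J 12.5 Gy replicate 1, and CBA/J 15 Gy replicates 2 and 3), with a change of at least 0.48 in each case and adjusted p up to 0.0661. The highest Bnip3 value of CBA/J, 11.89, and that of C57L/J, 12.94, both came from muscle arrays. Without these the differences were -0.66 (adjusted p = 0.00846) and 0.42 (adjusted p = 0.0312).

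Slc2a1 ranged from 9.37 to 10.44 in CBA/J and from 10.08 to 10.64 in C57BL/6J, and was 0.45 ± 0.12 lower in CBA/J (log2 change -0.45, adjusted p = 0.0167). Its other probe sets were also lower in CBA/J, at -0.36 (adjusted p = 0.00694 over all probe sets) and -0.33 (adjusted p = 0.0552). In C57L/J Slc2a1 was 0.39 ± 0.12 lower than in C57BL/6J (log2 change -0.39), which passed the threshold without the muscle arrays (-0.50, adjusted p = 0.0386). When each array was left out in turn, it also passed without C57L/J 15 Gy replicate 3, CBA/J 0 Gy replicate 1, CBA/J 0 Gy replicate 2 and C57BL/6J 12.5 Gy replicate 1 (adjusted p 0.0171 to 0.0483).

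For Hif1a the strain difference depended on the probe set. The brightest set was 0.26 ± 0.06 higher in CBA/J than in C57BL/6J (adjusted p = 0.00538), and another was 0.63 ± 0.20 higher (adjusted p = 0.0428 over all probe sets). Another set was 0.61 ± 0.08 lower in CBA/J (log2 change -0.61, adjusted p = 1.5e-05), and the dimmest set differed by -0.80 ± 0.40 (adjusted p = 0.227). The direction of Hif1a between CBA/J and C57BL/6J is therefore unsettled. Vegfa showed the same dependence: the brightest set differed by 0.12 ± 0.15 (adjusted p = 0.697), while the other was 0.75 ± 0.14 higher in CBA/J (adjusted p = 0.00122 over all probe sets). The reason for these differences between probe sets was not tested.

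**Figure D4:**
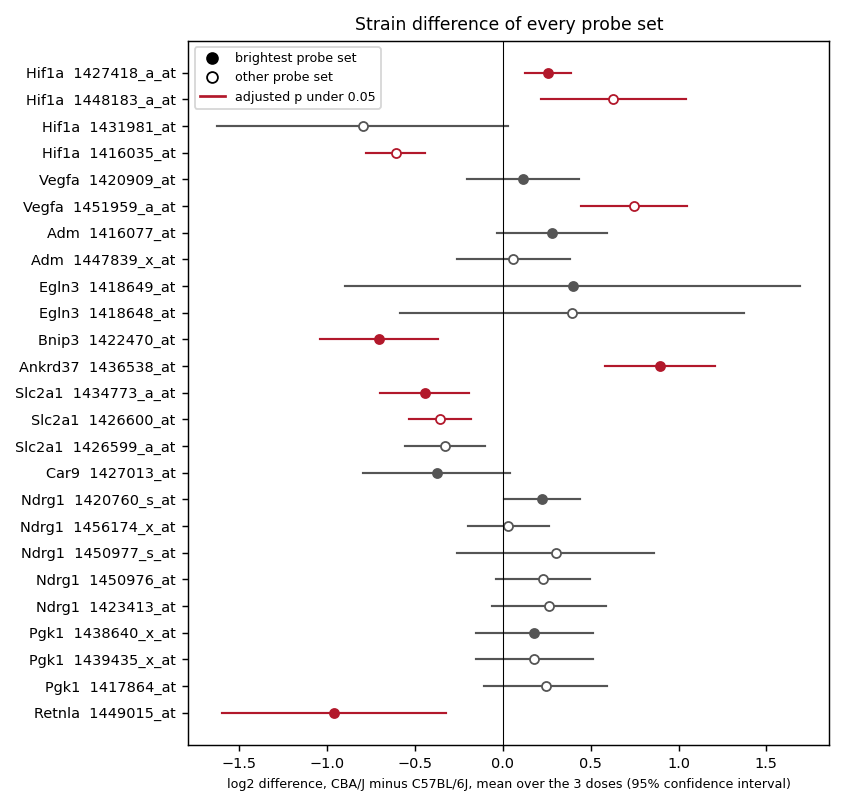
Log2 difference between CBA/J and C57BL/6J over the 3 doses (horizontal axis) for every probe set of the 10 members and Retnla (vertical axis), with 95% confidence intervals; filled points are the brightest probe set of a gene, and red marks an adjusted p under 0.05 over all probe sets. The 4 Hif1a probe sets fall on both sides of 0, from -0.80 to 0.63, while the 3 Slc2a1 probe sets all lie below 0.

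Retnla was compared with the members because the paper raises tissue hypoxia as a possible source of its induction. In C57L/J it measured 12.10, 12.36 and 11.77 at 0 Gy, 13.36, 13.62 and 13.65 at 12.5 Gy, and 13.75, 13.28 and 12.89 at 15 Gy. Every irradiated mouse of this strain was above every sham mouse. In C57BL/6J it measured 12.49, 13.04 and 12.40 at 0 Gy, 13.22, 12.98 and 12.51 at 12.5 Gy, and 14.16, 13.76 and 13.64 at 15 Gy, with separation from sham at 15 Gy alone. In CBA/J it measured 10.77, 10.86 and 13.93 at 0 Gy, 12.53, 12.71 and 12.39 at 12.5 Gy, and 12.00, 11.75 and 12.61 at 15 Gy, and the sham mice of this strain differed among themselves by more than the groups did.

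Over the strains Retnla rose by 0.85 ± 0.26 (log2 scale, SE; adjusted p = 0.0346), or 1.80-fold. Without the muscle arrays the change was 0.18. CBA/J sham is then represented by replicate 3 alone, whose Retnla level was 13.93 and whose fat and lymph node markers were high. Whether those tissues contributed to its Retnla level was not tested. The call was lost when 1 of 8 arrays was left out, with changes of at least 0.67 (adjusted p up to 0.0988): C57L/J 0 Gy replicates 1 and 3, CBA/J 0 Gy replicates 1 and 2, CBA/J 15 Gy replicate 3, C57BL/6J 0 Gy replicates 1 and 3, and C57BL/6J 12.5 Gy replicate 1. Without CBA/J 0 Gy replicate 3 the rise was 1.197. Side by side with Retnla, in C57L/J the irradiation change was 1.34 ± 0.46 for Retnla, 1.06 ± 0.22 for Adm and -0.72 ± 0.22 for Ankrd37. In CBA/J the changes were 0.48, 0.26 and -0.20 for the same genes, and in C57BL/6J 0.73, -0.13 and -0.67. Each of these strain values uses the same sham mice for all 3 genes. By dose, Retnla in C57L/J was 1.46 ± 0.19 above sham at 12.5 Gy (limma adjusted p = 0.0531) and 1.23 ± 0.28 at 15 Gy (adjusted p = 0.444). In C57BL/6J it was 0.26 ± 0.26 (adjusted p = 0.743) and 1.21 ± 0.24 (adjusted p = 0.179) above sham. In CBA/J it was 0.69 ± 0.88 and 0.26 ± 0.91 above sham. In these limma fits Retnla met the looser limit of the study's methods at both doses in C57L/J and at 15 Gy in C57BL/6J. That limit was not met at 12.5 Gy in C57BL/6J or at either dose in CBA/J. Retnla passed the adjusted threshold in none of these comparisons.

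From mouse to mouse within a group, no relation between Retnla and a member passed the threshold. Pearson's r of the group-centred log2 values over 27 arrays ran from -0.43 for Adm (p = 0.146; Spearman rho = -0.32, p = 0.198) to 0.10 for Pgk1 (p = 0.594; rho = 0.19, p = 0.412), by two-sided permutation within groups. After adjustment over the 10 relations the lowest value was 0.851 for r and 0.612 for rho. Leaving out the 2 arrays farthest from the median of the member gave r of -0.41 for Adm and 0.32 for Pgk1 (adjusted p = 0.833 and 0.305). Without CBA/J 0 Gy replicate 3 the Adm value was -0.25, a setting added after the data were seen. Without the muscle arrays (14 arrays, in groups that still held more than 1), r was 0.09 for Adm (adjusted p = 0.867), -0.50 for Slc2a1 (adjusted p = 0.858) and 0.59 for Pgk1 (p = 0.0297 by permutation; adjusted p = 0.297), so that the sign for Adm turned. With 3 mice per group, weak relations are not detectable at this number of arrays.

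**Figure D5:**
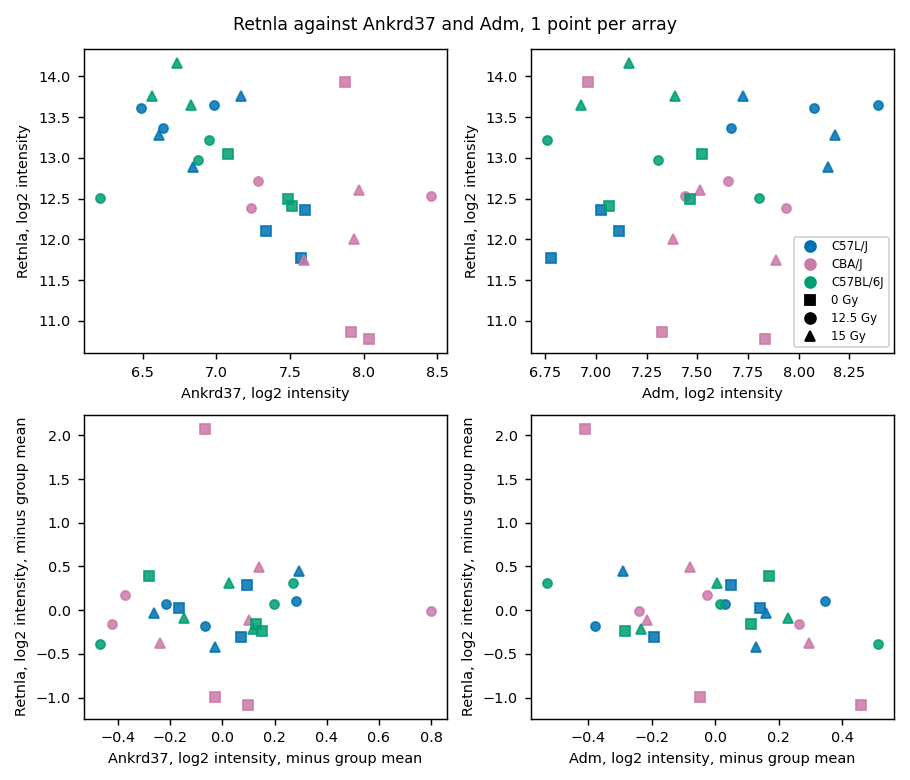
Log2 intensity of Retnla (vertical axes) against Ankrd37 and Adm (horizontal axes), 1 point per array, as measured (top) and after subtracting the mean of each group (bottom), coloured by strain and shaped by dose. The downward slope against Ankrd37 in the top panel (r = -0.59) is absent in the lower panel (r = 0.05), where CBA/J 0 Gy replicate 3 is the highest point.

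The wider pathway was described through 3 lists of genes. The oxygen sensing machinery (12 genes, all measured, among them prolyl hydroxylases, the von Hippel-Lindau gene and the partners of Hif1a) had 0 genes called after irradiation, with 11 of 12 below 0 and a median of -0.14, against -0.01 over all genes. Of 18 measured glycolysis genes 1 was called, Slc2a3, a glucose transporter of high affinity, which fell by 0.42 ± 0.10 (adjusted p = 0.00569). This call was lost with the mean of its probe sets (-0.29, adjusted p = 0.197) and with the most variable one (-0.03, adjusted p = 0.983), and in C57BL/6J Slc2a3 averaged 10.09 on irradiated and 10.05 on sham arrays. Of 30 other measured targets of hypoxia-inducible factors 10 were called, 4 higher and 6 lower, with a median of -0.04, beside 14.3% of all genes called. That count was 6 with the mean of probe sets and 4 with the most variable probe set. Without the muscle arrays 0, 3 and 6 genes of these lists were called.

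Among those targets the largest change belonged to Ddit4, a stress-induced inhibitor of the growth kinase mTORC1 that DNA damage also induces, which rose by 1.09 ± 0.12 (adjusted p = 3.39e-06). It ranged from 11.21 to 12.06 on irradiated C57L/J arrays and 10.16 to 10.81 on sham ones, from 10.90 to 11.67 against 10.05 to 10.41 in CBA/J, and from 11.11 to 11.92 against 10.05 to 10.78 in C57BL/6J. No irradiated mouse overlapped the sham mice of its strain. Cxcr4, a chemokine receptor, fell by 0.94 ± 0.14 (adjusted p = 7.59e-05). Bhlhe40, a transcriptional repressor, fell by 0.49 ± 0.09 (adjusted p = 0.00087). Its change was -0.88 in C57L/J and -0.60 in CBA/J, while in C57BL/6J it averaged 11.05 on irradiated and 11.04 on sham arrays (interaction adjusted p = 0.532). Pdgfb, a growth factor made by endothelium and platelets, fell by 0.61 ± 0.12 (adjusted p = 0.0014). The rises of Ddit4 and the falls of Cxcr4 and Bhlhe40 kept their call in all alternatives run, while that of Pdgfb was lost in 1 of 10 settings (adjusted p = 0.217).

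Between strains, the counts of called genes in these lists depended on the processing. Against C57BL/6J, where 13.3% of all genes were called, CBA/J had 1 of 12 oxygen sensing genes called (Siah2, a ubiquitin ligase for prolyl hydroxylases, 0.41 ± 0.11 higher, adjusted p = 0.0158), 2 of 18 glycolysis genes (Pfkfb4 -0.49, Slc2a3 -0.53) and 2 of 30 other targets (Plod1 0.44, Insig2 0.27). The count of 2 of 30 was 7 with median-centring and 8 with the muscle markers as a covariate. Without the muscle arrays Siah2 (adjusted p = 0.246), Plod1 (0.0843) and Insig2 (0.203) were not called. Between C57L/J and CBA/J, with 11.2% of all genes called, the counts were 0, 2 and 3, with Pfkp, the platelet form of phosphofructokinase, at -0.73 ± 0.11 (adjusted p = 5.77e-05) and Pfkfb4 at 0.37. Plod1 (-0.33), Stc2 (-0.51) and Insig2 (-0.20) were lower in C57L/J. The call of Stc2 was kept in 8 of 10 alternative settings. Pfkfb4 (adjusted p = 0.144), Plod1 (0.135) and Insig2 (0.241) were not called without the muscle arrays. Insig2 also lost its call without C57L/J 0 Gy replicate 2, C57L/J 12.5 Gy replicate 3, C57L/J 15 Gy replicate 2, CBA/J 0 Gy replicate 2 or CBA/J 15 Gy replicate 2 (adjusted p up to 0.0607). Between C57L/J and C57BL/6J, with 5.34% of all genes called, the counts were 0, 1 and 0. The call was Pfkp (-0.57 ± 0.11, adjusted p = 0.002), kept in 9 of 10 alternative settings.

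The genes whose pattern over the 27 arrays was most like that of each member were sought among the 13829 genes with a mean log2 level of 6 or more. Strain, dose and tissue composition all enter these likenesses, which are descriptions. Ankrd37 was most like Ccn2 (Pearson r = 0.86, Spearman rho = 0.87), a matricellular protein gene, and Cpne1 (r = 0.83, rho = 0.83). Adm was most like Crem (r = 0.65, rho = 0.68), a cAMP-responsive transcription factor, and Mrfap1 (r = 0.65, rho = 0.67), the lowest likeness of any member. Vegfa was most like Mospd2 (r = 0.91, rho = 0.90) and Crb3 (r = 0.90, rho = 0.80), Hif1a like Insig2 (r = 0.79, rho = 0.82) and Rabggtb (r = 0.77, rho = 0.73), and Slc2a1 like Stard6 (r = 0.74, rho = 0.71) and Gm16136 (r = 0.72, rho = 0.69).

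Pgk1 was most like Cisd1 (r = 0.94, rho = 0.83) and Timm23 (r = 0.94, rho = 0.75), both of mitochondrial membranes, and Bnip3 like Pdk2 (r = 0.90, rho = 0.73) and Trnp1 (r = 0.89, rho = 0.89). Ndrg1 was most like Plcd1 (r = 0.79, rho = 0.77) and Phgdh (r = 0.79, rho = 0.83). Car9 was most like Ecel1 (r = 0.82, rho = 0.58) and Tnfsf8 (r = 0.77, rho = 0.62), all at low intensity. Retnla was most like Nit1 (r = 0.77, rho = 0.70) and Gstt3 (r = 0.76, rho = 0.68), neither of them a member.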

How the data were processed

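Lung RNA of 27 mice was hybridised to Affymetrix mouse expression arrays, 1 array per mouse. The authors deposited linear intensities of 45101 probe sets, for which the submitters' processing notes name Affymetrix Expression Console 1.1; how probes were summarised is not stated there. Each deposited array had a trimmed mean of 500, and no further normalization was applied. A floor of 1 was set before log2. Probe sets with 1 gene symbol (34958, of which 34754 are current symbols) gave 18194 genes, each represented by its brightest probe set, by mean log2; 932 with several symbols and 9211 with none were left out. Columns of no sample numbered 0, and 0 pairs of arrays were identical. The number of arrays limits the precision.

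Group means were fitted with lmFit and eBayes of limma 3.58.1 (R 4.3.3), over 27 arrays for contrasts across strains and over 6 arrays for a dose against 0 Gy in a strain. A change was called at a Benjamini-Hochberg adjusted p under 0.05. Correlations used 100000 permutations within groups (random seed 1). Scripts were tested on simulated data. All 10 members, Retnla, up to 4 genes per list and comparison with the lowest adjusted p under 0.05, and the 2 genes most like each member were named. The members and lists were chosen with earlier results of these data known. A random variance test, an intensity trend with a robust prior, other probe set rules, a filter on mean log2 under 6, a floor of 32, quantile normalization, median-centring, a replicate block, each array left out, and the muscle arrays left out or their markers as a covariate were the alternatives. Same-numbered arrays of a strain correlated between -0.07 and 0.25 in their deviations from group means, so the numbers did not pair the mice. Some listed genes, among them Gpi1, Eno1, Bnip3l, Loxl2, Epo and Retnlg, were not analysed here. The labels describe separate mice, so the p-values measure the spread between mice.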

Additional observations from a re-analysis of the deposited data

How the results depend on the processing

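Over the 3 strains, 2 members were called after irradiation; the count was 1 once the 9 muscle arrays were removed, 1 with the muscle score as a covariate, 1 with the replicate block (Adm adjusted p = 0.0845), and 1 to 2 when each array was left out. In C57L/J the count of 1 became 0 with the most variable probe set and 0 with the replicate block (Adm adjusted p = 0.0511), and 0 to 2 with an array left out; in C57BL/6J it was 0 to 1 and in CBA/J 0 to 0. Without CBA/J 12.5 Gy replicate 1, Ankrd37 was called in C57L/J (adjusted p = 0.0282) and in C57BL/6J (adjusted p = 0.0288). For 12.5 against 0 Gy in C57L/J the count of 0 became 1 with the fit over 27 arrays, 1 with the intensity trend and robust prior and 1 with the filter on low values. Between C57L/J and C57BL/6J it became 1 with the trend, 1 with the filter and 1 without the muscle arrays, and 0 to 1 with an array left out. Between C57L/J and CBA/J leaving out an array gave 1 to 3 (Ndrg1 was added without C57L/J 15 Gy replicate 3, adjusted p = 0.0109), and between CBA/J and C57BL/6J 4 to 4. Within the other dose comparisons, 15 against 12.5 Gy and the interaction, 0 members were called in every alternative. For CBA/J at 12.5 against 0 Gy, the fit without the muscle arrays could not be made, as it leaves 1 array per group.

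Hif1a between CBA/J and C57BL/6J turned to -0.13 with the mean of probe sets and -0.80 with the most variable one, and was 0.19 (adjusted p = 0.302) without the muscle arrays. Plod1 between C57L/J and CBA/J turned to 0.0366 and 0.40 under the same probe set rules, and with the most variable probe set, between CBA/J and C57BL/6J, Plod1 turned to -0.30, Slc2a3 to 0.051 and Insig2 to -0.0186. These rules swap in other probe sets. With median-centring Slc2a1 (-0.34, adjusted p = 0.0611) lost its call between CBA/J and C57BL/6J, and with the most variable probe set Retnla lost its call after irradiation (adjusted p = 0.0523). The replicate block changed no other count of members called. Uncentred values over the 27 arrays, which include strain and dose differences, gave 1 relation with Retnla past the threshold (Ankrd37, r = -0.59, rho = -0.62, permutation adjusted p = 0.0103 and 0.0084), against 0 within groups. Causes were not tested. The brightest probe set of Car9 fell below an intensity of 32 on 1 array.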
